A study of Mus musculus with 2 samples.

Results

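The mitochondrial respiratory chain and ATP synthase are built from subunits that are encoded mostly in the nucleus, and 88 of those nuclear genes were measured in the granule layer of the mouse cerebellum. They were chosen by symbol among the protein-coding genes of mouse GENCODE. The rule uses no measured values, though it was set with earlier results of these data known. It takes symbols that start with Nduf, a subunit letter (a, b, c, s or v) and a number. It also takes Sdha to Sdhd, Usmg5, Atpif1, Cyc1 and Cycs, and symbols that start with Uqcr, Cox4 to Cox8 or Atp5. Pseudogene symbols that carry -ps are left out. The rule found 89 genes, and 88 of them have a row among the 43346 Ensembl genes of the deposited tables; the other one is a further Ensembl identifier of Atp5o. By complex they are 37 genes of complex I, 4 of complex II, 9 of complex III, the electron carrier Cycs, 18 of complex IV and 19 of complex V.

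RNA came from 2 areas of the granule layer, each cut out by laser capture and turned into 1 library. The library type is not given and is probably Smart-seq, which copies polyadenylated RNA along its length and amplifies it. Both areas form 1 group: the labels give adult male wild-type tissue of 8 months, name the strain B6NCrl in one field and C57Bl6 in another, and state for each a captured surface of 18000 square microns with 50 cells as the starting quantity. Area 1 and area 2 are biological replicates 1 and 2 of the labels, both carry the same donor label, and whether they came from 1 animal or 2 is not stated, so the spread given here is between areas and may be technical. Values are the mean ± SD of both areas (n = 2) in TPM (a level corrected for transcript length and scaled to the same total in each library) unless both areas are given, always area 1 first.

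The gene tables held 19962271 and 19261911 expected counts on Ensembl genes. All 7 granule neuron markers were detected, led by the GABA-A receptor subunit Gabra6 at 925 and 1086 TPM, and the lowest was the glutamate transporter Slc17a7 at 11.9 and 12.3 TPM. Markers of other cells were present too: the summed level was 575 and 539 TPM for 5 astrocyte and Bergmann glia genes, 545 and 673 TPM for 5 oligodendrocyte genes and 212 and 237 TPM for 4 Purkinje cell genes, each beside 2094 and 2320.3 TPM for the granule neuron genes. The libraries stood apart in red blood cell genes, with a sum of 5036 and 388 TPM; their part in the levels below was not tested. Each library is a mixture of cells, so more cells of a type and more RNA per cell cannot be told apart.

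In the inner mitochondrial membrane, complex I takes electrons from NADH and complex II takes them from succinate, complex III passes them on to cytochrome c, and complex IV hands them to oxygen. Complexes I, III and IV pump protons as they do so, and complex V, the ATP synthase, uses the returning protons to make ATP. Complexes I, III, IV and V also hold subunits from the mitochondrial genome, while complex II is wholly nuclear. Neurons rely on this chain for most of their ATP, which pays for ion pumping after electrical activity.

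Nuclear respiratory chain genes were among the most abundant messages of the layer. Detection was set at 1 TPM or more with 5 or more expected counts, required in both areas, and 85 of the 88 genes passed, where 50.3% of the 21461 nuclear protein-coding genes did. Their summed level was 72455 TPM in area 1 and 72893 TPM in area 2, or 72674 ± 309 TPM, which is 12.2% ± 0.084 of the summed level of nuclear protein-coding genes. Their median was 634 ± 0.919 TPM, and the median of all nuclear protein-coding genes was 1.40 ± 0.035 TPM. Of the 56 nuclear protein-coding genes at a mean of 1000 TPM or more, 31 were respiratory chain genes, and of the 1199 genes at 100 TPM or more, 79 were. They took 10 of the 20 highest ranks (6 of complex IV, 3 of complex V and 1 of complex I), 29 of the 50 highest and 53 of the 200 highest, and no gene of complex II was in any of these.

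The complexes differed in level. The median was 1231 ± 4.33 TPM for complex III, 998 ± 22.0 for complex IV, 946 ± 29.7 for complex V, 600.1 ± 3.42 for complex I and 157 ± 5.19 for complex II. Complex III stood 2.05 ± 0.019-fold above complex I, and complex I stood 3.82 ± 0.148-fold above complex II, both in each area and by more than the spread between areas. The complex III median was the level of 1 gene, Uqcrh. The next gene below it was Uqcrfs1 at 228 ± 8.92 TPM, so this median sits at the edge of a gap. Counting only transcripts annotated as protein-coding, complex III stood 1.72 ± 0.126-fold above complex I. Complex IV over complex V was 1.02-fold in area 1 and 1.095-fold in area 2 (1.055 ± 0.056 as the mean), a difference from 1 no larger than the spread between areas, so these neighbours in the order were not told apart. The median of complex IV also falls in a gap of its distribution, between Cox5a at 1187 ± 46.0 TPM and Cox7b at 809 ± 1.95, because 8 of its 18 genes are far lower; with coding transcripts only (those annotated as protein-coding) it was 415 TPM. As a sum, complex I held 35.4% of the level of all 88 genes, complex IV 27.4%, complex V 25.9%, complex III 10.1% and complex II 1.01%. These shares depend on where the gene Ndufa4, named for complex I and later assigned to complex IV, is placed: with it and its relative Ndufa4l2 in complex IV, complex I held 30.3% and complex IV 32.5%, so that complex IV was the largest.

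**Figure D1:**
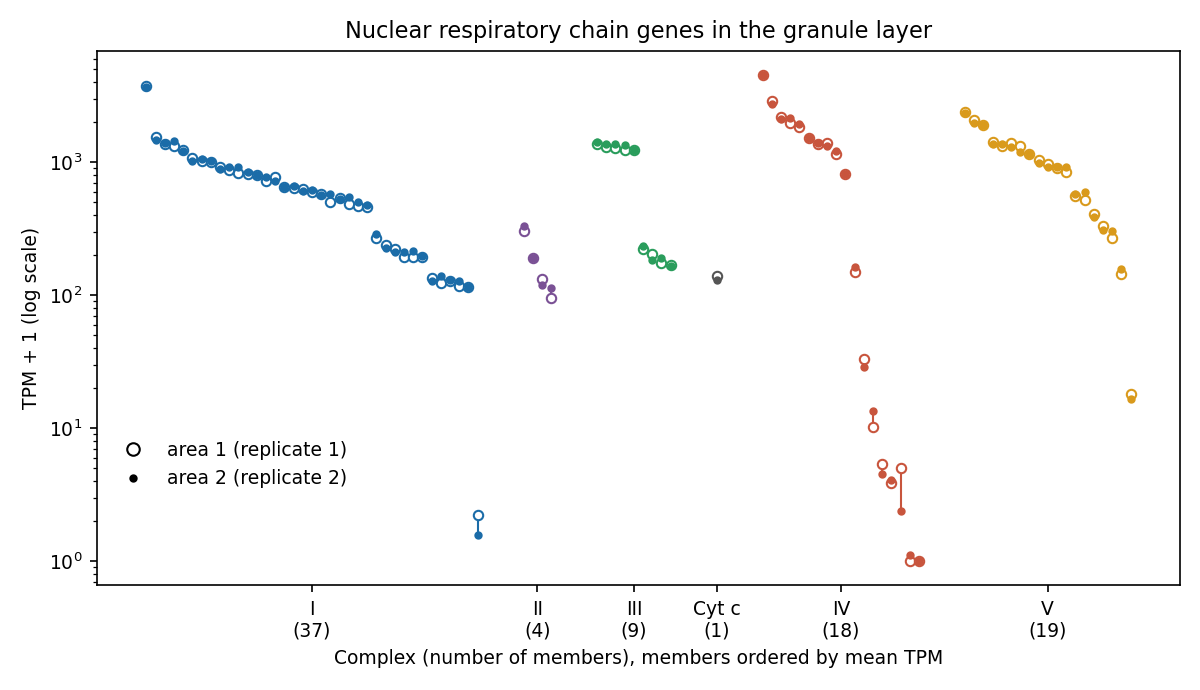
Level of each of the 88 genes by complex, as TPM + 1 on a log scale (vertical axis), with genes of a complex ordered by mean level along the horizontal axis; open circles are area 1, filled circles area 2, and a line joins the areas. Most genes of complexes I, III, IV and V sit between 100 and 5000 TPM with the areas close together, and complex IV has a tail of 7 genes below 50 TPM.

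Within complex I, the 7 nuclear core subunits, which carry the flavin and the iron-sulphur clusters and form the quinone site, were lower than the subunits around them. The median of the core genes was 201 ± 14.5 TPM and that of the 28 accessory and distal arm genes was 688 ± 0.318 TPM, 3.43 ± 0.249-fold higher. Ndufv1, which binds NADH and the flavin, was the lowest core gene at 114 and 114 TPM. Ndufs1, the largest iron-sulphur subunit, was at 122 and 139 TPM, above Ndufv1 in each area. On coding transcripts alone their order turned, with Ndufs1 at 60.2 and 73.4 TPM and Ndufv1 at 108 and 107 TPM. Ndufs3 was at 194 and 212 TPM and Ndufs8, which holds 2 of the clusters, at 191 and 214 TPM, and both were higher than Ndufv1 and Ndufs1 in each area. The 2 core genes far above the others were the iron-sulphur subunits Ndufs7 at 498 and 572 TPM and Ndufv2 at 598 and 620.3 TPM.

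The accessory subunits of complex I were led by Ndufc1 at 1557 and 1477 TPM, Ndufa1 at 1379 and 1400.0 TPM and Ndufa5 at 1328 and 1435 TPM. Ndufa1 and Ndufa5 overlapped across the areas, and Ndufc1 was above both in each area. On coding transcripts alone Ndufc1 was at 789 and 725 TPM and Ndufa5 at 186 and 180.1 TPM, both below Ndufa1 at 1379 and 1400.0 TPM. The 18 accessory genes ran from Ndufa11, a membrane subunit, at 121 ± 7.78 TPM to Ndufc1 at 1517 ± 56.4. The 10 genes of the distal membrane arm (Ndufb genes) ran from Ndufb4 at 193 ± 2.69 to Ndufb2 at 904 ± 27.0, with a median of 607 ± 3.03 TPM. Ndufb4 has a pseudogene copy that is described below. Summed with it, Ndufb4 was at 1207 ± 44.5 TPM, above Ndufb2, though the shorter row of the copy raises this sum. Ndufab1, the acyl carrier protein that belongs to complex I but falls outside the symbol rule, was at 1015 and 1052 TPM. Ndufa4 was the highest gene named for complex I, at 3767 and 3687 TPM and 25365 and 24135 counts; it was first described as a complex I subunit and was later assigned to complex IV. It is the highest and Ndufa4l2 the lowest gene of the complex, so placing both in complex IV changes the sums given above and not the medians.

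Complex II, which is also the succinate dehydrogenase of the citric acid cycle, had the lowest median. Sdhb, its iron-sulphur subunit, was highest at 305 and 328 TPM. Sdhd, a membrane anchor, was at 189.6 and 189 TPM, and Sdha, the flavoprotein that oxidises succinate, at 132 and 118 TPM. Sdhc, the other anchor, was lowest at 94.6 and 111 TPM. Sdhb was above Sdhd, and Sdhd above the other 2 genes, in each area, while Sdha and Sdhc came within 7 TPM of each other in area 2. On coding transcripts alone Sdha was the lowest, at 74.6 and 73.1 TPM, and Sdhc was at 94.6 and 111 TPM. The complex ranked from Sdhb at place 332 to Sdhc at place 1174 among nuclear protein-coding genes.

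Complex III fell into 2 levels. Its 5 small subunits Uqcr11, Uqcrb, Uqcrq, Uqcr10 and Uqcrh ran from 1231 ± 4.33 to 1390.3 ± 35.4 TPM. The highest, Uqcr11, was at 1365 and 1415 TPM, Uqcrb at 1299.7 and 1379 TPM and Uqcrq at 1287 and 1364 TPM. This order held in each area, though the ranges of neighbours over the 2 areas overlapped. Uqcrh was the lowest small subunit in each area; on coding transcripts alone Uqcrq was lower, at 945 and 1015 TPM beside 1164 and 1176 TPM for Uqcrh. The redox subunits were far lower: Uqcrfs1, the Rieske iron-sulphur protein, was at 222 and 234 TPM and Cyc1, cytochrome c1, at 202 and 184 TPM. The large core proteins Uqcrc2 and Uqcrc1 were at 174 and 188 and at 166 and 165 TPM. The median of the small subunits was 7.08 ± 0.337-fold that of these 4 genes, and no small subunit came near them in either area.

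Cycs encodes somatic cytochrome c, which carries electrons from complex III to complex IV. Its own row was at 139 and 129.9 TPM with 7057 and 6421 counts, and the testis form Cyct had 0 counts in both areas. More reads were placed on copies of Cycs than on Cycs itself. The single-exon gene Gm10053, which GENCODE M21 calls protein-coding, held 9534 and 9054 counts (655 and 639 TPM), and the processed pseudogene Gm10108 held 1963 and 1899 counts (523 and 521 TPM). The first 90 coding bases of each are shown to make clear how little separates them, with capitals at the positions where any of the 3 differ.
Cycs: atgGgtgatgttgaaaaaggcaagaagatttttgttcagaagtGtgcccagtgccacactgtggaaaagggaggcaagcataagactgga
Gm10053: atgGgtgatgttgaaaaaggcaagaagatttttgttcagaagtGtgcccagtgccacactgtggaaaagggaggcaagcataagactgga
Gm10108: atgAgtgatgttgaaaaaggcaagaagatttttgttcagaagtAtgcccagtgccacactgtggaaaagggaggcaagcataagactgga
Over all 315 coding bases Gm10053 did not differ from Cycs and Gm10108 differed at 2 bases, both in the stretch shown. Cycs lies at chr6:50562563-50566538, minus strand, Gm10053 at chr19:24875686-24876631, plus strand and Gm10108 at chr5:13121448-13121766, minus strand (GRCm38, GENCODE M21). Cycs with its copies summed to 1303 ± 18.8 TPM. Each row in this sum is corrected for its own length, and the rows of the copies are shorter. In area 1 Gm10108 had 523 TPM from 1963 counts, beside 139 TPM from 7057 counts for Cycs. The sum is thus higher than the joint counts would give at the length of Cycs.

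Copies of this kind touched other members. A copy was taken as a gene at another locus whose transcript matched a member's coding sequence over at least 100 bases at 95% identity or more. Of the 88 genes, 23 had one, with 44 copies in all, 38 of which held a count; in 9 members the copies held over 1% of the joint counts in an area, and in 6 over 10%. The subunit g gene Atp5l, at 407 and 388 TPM, had a processed pseudogene, Gm10221 (chr5:24581554-24581862, minus strand), with the same 309 coding bases and 12371 and 11477 counts beside 2875 and 2663 for Atp5l itself. Copies held 81.2% and 81.2% of the joint counts of Atp5l in the 2 areas. For the complex I gene Ndufb4 the share was 77.9% and 78.1%, nearly all on Ndufb4c (chr15:73809507-73809896, minus strand), whose 387 coding bases are the same, at 982 and 1043 TPM beside 191 and 195 TPM for Ndufb4. For the c ring gene Atp5g2 it was 66.3% and 65.2%, mostly on Gm10175, and for Cycs 61.97% and 63.04%. The share was smaller for Atp5g1, at 18.8% and 21.8% on Gm10039, and for Cox7c, at 16.7% and 16.0%, mostly on Gm12338.

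A read from bases that a gene and its copy share can come from either, so the levels of these 6 genes are uncertain as single rows. The deposited posterior SD of the count, an estimate of how freely reads can be shared out among rows with like sequence, was 4.89% and 5.99% of the count for Atp5g2, 3.31% and 3.49% for Atp5l, and 1.51% and 1.60% for Ndufb4. It was smaller for the other genes, at 1.18% and 1.35% for Atp5g1, 0.76% and 0.765% for Cycs and 0.542% and 0.534% for Cox7c. Summed with its copies, Ndufb4 was at 1207 ± 44.5 TPM, Atp5l at 2586 ± 84.7 and Cox7c at 2442 ± 134. These sums, and the total that follows, are raised by the shorter rows of the copies. In area 1 Gm12338 had 1139 TPM from 1815 counts, beside 1386 TPM from 9321 counts for Cox7c itself. Levels from the joint counts at a member's own length were not worked out. With copies added to every member the sum of all 88 genes was 79171 TPM and the median of complex V was 1146 TPM, above that of complex IV. Antisense overlap is another limit: exons of 23 members overlap exons of an expressed gene on the opposite strand, and whether counting used strand is not stated.

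**Figure D2:**
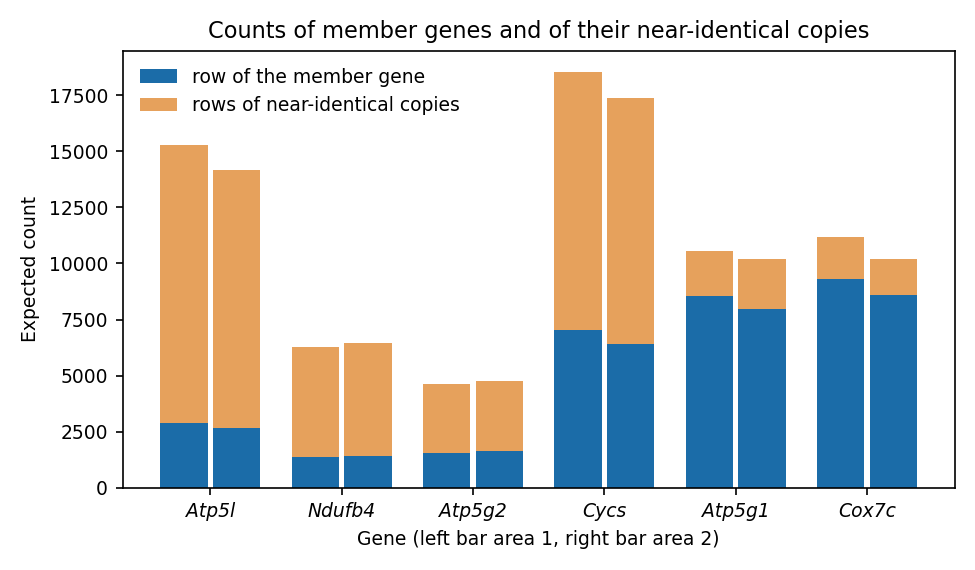
Expected counts (vertical axis) of the 6 genes whose copies hold over 10% of the joint counts, with the left bar for area 1 and the right bar for area 2; blue is the row of the gene itself and orange the rows of its copies. For Atp5l, Ndufb4, Atp5g2 and Cycs the orange part exceeds the blue part in both areas.

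Complex IV, cytochrome c oxidase, held the highest member of all. Cox8a, a small membrane subunit, was at 4499 and 4523 TPM with 34380 and 33603 counts (chr19:7215153-7217616, minus strand, GRCm38) and held rank 3 among nuclear protein-coding genes. Cox6c followed at 2886 and 2732 TPM and Cox6b1 at 2195 and 2124 TPM, with Cox6c above Cox6b1 in each area. Cox4i1, the largest nuclear subunit, was at 1980.2 and 2154 TPM and crossed Cox6b1 between the areas. Cox6a1 was at 1848 and 1923 TPM, Cox5b at 1529 and 1524 TPM and Cox5a at 1154 and 1219 TPM. Cox7a2l, which joins complexes III and IV into supercomplexes and is not a regular subunit, was at 147 and 161 TPM.

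Several subunits of complex IV come as paralogs with different tissue use, and here 1 gene of each set held nearly all of the level. The ubiquitous Cox4i1 held 99.86% ± 0.0024 of the level of its pair, and Cox4i2, known from lung and oxygen-sensing cells, was at 2.88 and 3.06 TPM. Cox6a1, the form known from liver and brain, was set against Cox6a2 of heart and skeletal muscle, which was not detected with 0 counts in area 1 and 1 count in area 2. Cox6b1 held 99.50% ± 0.116, with the testis form Cox6b2 at 9.24 and 12.4 TPM. Cox7b held 99.52% ± 0.0707, with Cox7b2 at 4.35 and 3.52 TPM. Cox8a held 99.94% ± 0.0412; the muscle form Cox8b was at 3.99 and 1.37 TPM with 18 and 6 counts, and the testis form Cox8c had 0 counts in both areas. For Cox8c a count of 0 is compatible with as many as 3 counts, which are 0.150 and 0.156 CPM (counts scaled like TPM but not corrected for length). Ndufa4 held 99.98% ± 0.0122 of its pair, and the hypoxia-inducible Ndufa4l2 was not detected at 1.22 and 0.560 TPM (18 and 8 counts). Cox8c, Cox6a2 and Ndufa4l2 are the 3 genes that did not pass detection.

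The exception by size was Cox7a1, the heart and skeletal muscle form of subunit VIIa, at 31.9 and 27.9 TPM and 145 and 123 counts beside 1373 and 1393 TPM for Cox7a2, which held 97.9% ± 0.221. Of 5 striated muscle markers 2 were detected, summing to 12.2 and 13.1 TPM with all 5, and the muscle creatine kinase Ckm had 0 counts in both areas. Of 6 mural cell markers, cells of vessel walls, 3 were detected, summing to 42.5 and 63.6 TPM with all 6, and Acta2 and Tagln had 0 counts in area 1. The part of these cells in the low paralogs was not tested.

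**Figure D3:**
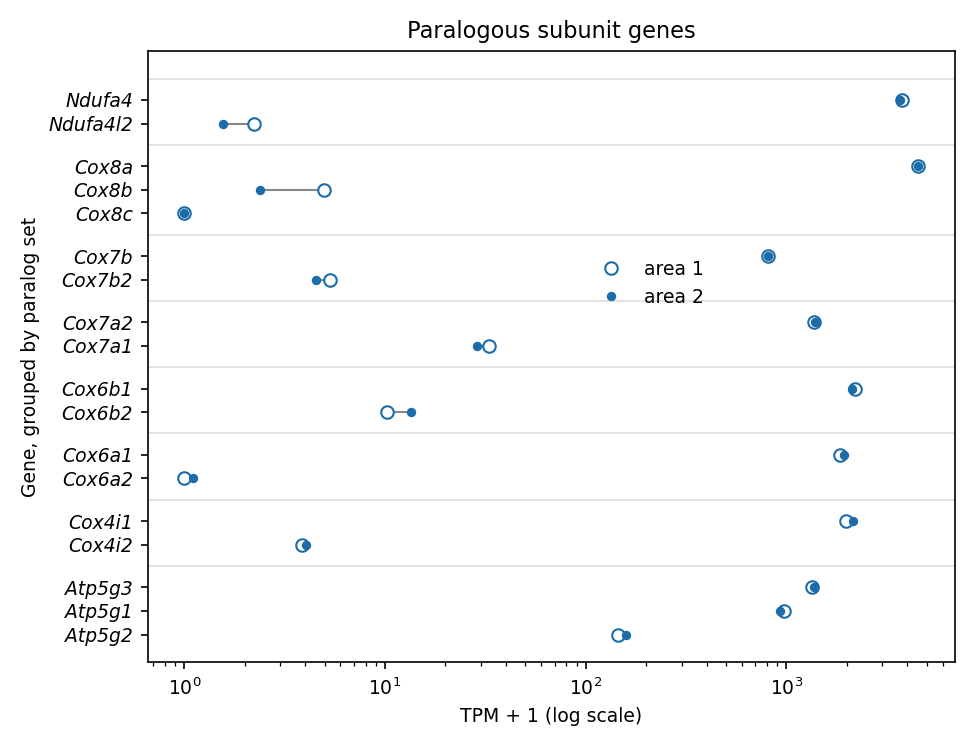
Level of each paralog set as TPM + 1 on a log scale (horizontal axis), 1 row per gene, with open circles for area 1 and filled circles for area 2. In every set of complex IV and in the Ndufa4 pair 1 gene is above 800 TPM and the others are below 35 TPM, while the 3 c ring genes Atp5g1, Atp5g2 and Atp5g3 are all above 140 TPM.

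The ATP synthase turns a ring of c subunits in the membrane against a catalytic head called F1. The c ring was the paralog set in which no gene held nearly all of the level. Its 3 genes encode the same mature protein behind different import signals: Atp5g3 was at 1332 and 1370.1 TPM and held 55.2% ± 0.982, Atp5g1 was at 967 and 923 TPM and held 38.6% ± 1.35, and Atp5g2 was at 144 and 157 TPM and held 6.15% ± 0.369. This order was the same in both areas. With the copies added Atp5g1 was at 1338 and 1352 TPM and Atp5g2 at 508 and 545 TPM, so that Atp5g1 and Atp5g3 crossed between the areas; the shares were then 41.9% ± 0.006 for Atp5g3, 41.7% ± 0.504 for Atp5g1 and 16.3% ± 0.498 for Atp5g2. This near tie is one of TPM, in which the shorter row of Gm10039 weighs more per count. In counts Atp5g1 had 8559 and 7991 and its copy 1982 and 2231, together below 14160 and 14155 for Atp5g3 in each area. By summed counts in place of TPM the share of Atp5g3 was 58.9%, taking the 3 rows alone. The coding strands of a matching stretch of 90 bases near the end of each coding sequence show how the genes can be told apart, with capitals where the 3 are not alike.
Atp5g1: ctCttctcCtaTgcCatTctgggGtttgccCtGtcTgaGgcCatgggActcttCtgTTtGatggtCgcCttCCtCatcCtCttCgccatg
Atp5g2: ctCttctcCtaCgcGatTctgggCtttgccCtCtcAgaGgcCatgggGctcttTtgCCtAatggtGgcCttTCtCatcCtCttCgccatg
Atp5g3: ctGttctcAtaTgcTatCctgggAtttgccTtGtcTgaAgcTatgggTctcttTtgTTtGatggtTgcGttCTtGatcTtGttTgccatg
Over the last 75 codons (225 bases), Atp5g1 and Atp5g2 differed at 34 bases, Atp5g1 and Atp5g3 at 45, and Atp5g2 and Atp5g3 at 48. Of the 57 positions where the 3 were not all alike, 52 were at the last base of a codon. Atp5g1 lies at chr11:96068852-96075670, minus strand, Atp5g2 at chr15:102662864-102672352, minus strand and Atp5g3 at chr2:73908447-73911326, minus strand (GRCm38, GENCODE M21).

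Elsewhere in complex V the highest genes were not those of the catalytic head. Usmg5, the small subunit called DAPIT that links ATP synthase dimers, was at 2386 and 2354 TPM, and Atp5h and Atp5j of the peripheral stalk were at 2079 and 1982 and at 1895 and 1899 TPM. The stalk had a median of 1389 ± 26.8 TPM over 4 genes and F1 one of 565 ± 17.5 TPM over 5. On coding transcripts alone the stalk median was 695 ± 42.7 TPM and the F1 median 549.8 ± 4.33 TPM, so that the stalk over F1 was 1.26-fold in place of 2.46-fold. Within F1, the catalytic beta subunit Atp5b was at 1332 and 1201 TPM and the alpha subunit Atp5a1, present in equal number to beta in the enzyme, at 332 and 306 TPM. The shaft subunits were at 553 and 578 TPM for Atp5c1 (gamma), 270.2 and 304 TPM for Atp5d (delta) and 1146 and 1145 TPM for Atp5e (epsilon). The F1 genes had the order Atp5b, Atp5e, Atp5c1, Atp5a1, Atp5d in both areas. On coding transcripts alone Atp5e led at 1143 and 1143 TPM, Atp5b was at 602 and 547 TPM, close to Atp5c1, and Atp5a1 was lowest at 251 and 222 TPM. Atpif1, the inhibitor that stops the enzyme from hydrolysing ATP, was at 1386 and 1309 TPM. The lowest gene was Atp5s, a coupling factor rather than a structural subunit, at 17.2 and 15.5 TPM.

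Part of the level of some members lay on annotated transcripts that are not protein-coding. Of the 86 members with any level, 47 had under 1% of it on such transcripts, with a median of 0.282%; 19 had over 10% and 10 over 50%. The 10 included Ndufa10 at 88.0% ± 2.03, Ndufb4 at 87.2% ± 1.90, Ndufa5 at 86.7% ± 1.04, Atp5j at 71.0% ± 1.13, Atp5f1 at 68.8% ± 0.078, Cox7b at 68.0% ± 0.593, Cox5b at 62.6% ± 1.27, Atp5b at 54.7% ± 0.226 and Ndufc1 at 50.1% ± 1.09. In 7 members such a transcript was the leading one. Ndufa5-204, a processed transcript of 453 bases, held 86.0% ± 1.07 of Ndufa5, and Atp5j-208, a retained intron transcript of 526 bases, held 68.8% ± 1.07 of Atp5j. Cox5b-205 (362 bases) held 61.5% ± 1.60 of Cox5b, and Atp5b-206 (478 bases) held 43.4% ± 0.332 of Atp5b, beside 45.4% ± 0.226 for the coding Atp5b-201 of 1916 bases. All these shares are of TPM, which is corrected for length, and are not shares of reads. In counts Atp5b-206 held 3736 and 3312, beside 18735 and 16548 for Atp5b-201. For Ndufa5 the counts were 6867 and 7342 on Ndufa5-204, of 7795 and 8231 for the gene.

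For the genes just named these shares moved by less than 3 percentage points between the areas; they are estimates that split reads among overlapping transcripts. On coding transcripts alone, Atp5b was at 574 ± 38.9 TPM, Ndufa5 at 183 ± 4.26, Ndufa10 at 26.0 ± 3.55 and Ndufb4 at 24.6 ± 4.02. The level and the share of Ndufb4 cannot be told apart from the placing of reads on Ndufb4c, which has the same coding bases. On coding transcripts the sum of all 88 genes was 64478 TPM. The medians were 980 TPM for complex III, 839 for complex V, 570 for complex I, 415 for complex IV and 146 for complex II, so that complex IV moved from the second place to the fourth. Among coding isoforms, Ndufv3-202, of 485 bases, held 98.7% ± 0.219 of the complex I gene Ndufv3, and of the gamma subunit gene Atp5c1 the transcript Atp5c1-203 held 89.4% ± 1.60 and Atp5c1-201 8.37% ± 0.863.

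The level went with transcript length, most clearly in complexes I and III. Across the 85 detected members, which share the libraries, log2 TPM and log2 effective length (length less 99 bases in these tables) were correlated at -0.34 (Pearson) and -0.58 (Spearman). Within complex I the Pearson value was -0.82 over 36 genes, within complex III -0.99 over 9 genes, within complex V -0.57 over 19 genes and within complex IV 0.26 over 16 genes. Across all 10804 detected nuclear protein-coding genes it was -0.36. The 18 detected members under 500 bases had a median of 1340 TPM, the 44 from 500 to 1000 bases one of 821 TPM and the 23 over 1000 bases one of 181 TPM. For log2 counts, which are not corrected for length, the Pearson value was 0.05 and the Spearman value -0.18 over the same 85 genes, -0.32 and -0.36 within complex I, and -0.89 and -0.58 within complex III. The core and redox subunits of complexes I and III are among the long transcripts and the small subunits among the short ones, and role and length cannot be told apart here.

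**Figure D4:**
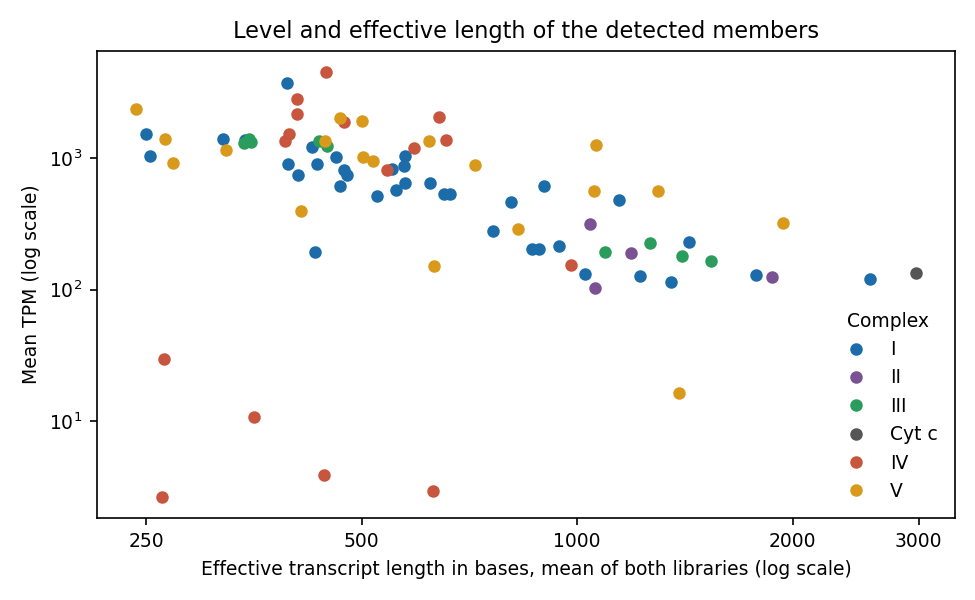
Mean TPM (vertical axis, log scale) against effective transcript length in bases (horizontal axis, log scale) for the 85 detected members, coloured by complex. Complexes I and III fall from short to long transcripts, with Pearson values of -0.82 and -0.99, and the low points at left are the minor paralogs of complex IV.

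The 13 subunits encoded in mitochondrial DNA were all detected and summed to 60288 ± 1665 TPM. The 3 highest were mt-Atp8 at 12856 and 12898 TPM, mt-Atp6 at 9847 and 9967 TPM and mt-Co1 at 7209 and 6246 TPM; mt-Atp8 and mt-Atp6 overlap, and reads of the shared bases cannot be assigned. The nuclear members summed to 1.21 ± 0.038 times this level. By complex, nuclear over mitochondrial was 1.62 ± 0.092 for complex I, 1.31 ± 0.0700 for complex IV, 1.16 ± 0.074 for complex III and 0.827 ± 0.012 for complex V. The ratio was higher in area 2 than in area 1 for complexes I, III and IV and lower for complex V. Nuclear and mitochondrial genes were 37 and 7 in complex I and 9 and 1 in complex III. They were 18 and 3 in complex IV and 19 and 2 in complex V. With Ndufa4 and Ndufa4l2 in complex IV, the nuclear sums were 21995 TPM for complex I and 23623 TPM for complex IV. The mitochondrial sums were 15939 and 15236 TPM, so complex IV then had the higher ratio.

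Assembly factors put the complexes together without being part of them. All 45 on the list were detected and together summed to 4241 ± 145 TPM, with a median of 21.8 TPM, below the median of the subunits. The 3 highest were Uqcc2 of complex III assembly at 759.9 and 783 TPM, Cox14 of complex IV assembly at 628 and 646 TPM and the copper chaperone Cox17 at 582 and 569 TPM. These 3 were the only factors above 500 TPM, and the lowest was Cox15, an enzyme of haem A synthesis, at 1.78 and 2.95 TPM.

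The 2 areas gave nearly the same levels. Among genes with a summed count of at least 10, which left 86 members, 1 member was over 1.5-fold apart on the scale of log2(TPM + 1), where 13.1% of the 16636 genes tested were. At a mean of 100 TPM or more it was 0 of 79 members and 0.838% of the 1312 genes tested. The 1 member was Cox8b, at 3.99 and 1.37 TPM, with a log2 ratio of area 2 over area 1 of -1.07; the direction was higher in area 1, as for 7.3% of all genes tested. It rests on 18 and 6 counts. No member was over the fold with the higher level in area 2, where 5.81% of all genes tested were. With a pseudocount of 5 no member was over the fold, beside 1.79% of all genes tested. With one of 0.1 Ndufa4l2 joined it, also higher in area 1, beside 26.7% of all genes, and the same 2 members were over the fold on counts scaled by edgeR's TMM or DESeq2's size factors, beside 27.1% of all genes by either. No gene of complexes I, II, III or V was over the fold at a pseudocount of 1.

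The median absolute log2 ratio was 0.08 for the members and 0.21 for all genes tested. Most members are high, and high genes varied less between the areas, so the 79 members at a mean of 100 TPM or more were read beside the 1312 genes tested at that level: their median absolute log2 ratios were 0.07 and 0.10. Among those 79, the widest was Sdhc with a log2 ratio of 0.23. Atp5f1 had 0.21, from 518 and 599 TPM, and Ndufs7 had 0.20. In the other direction were Sdha at -0.17 and Atp5b at -0.15. Whether these differences belong to the areas or to capture and amplification was not tested.

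Counting error was set against each difference by an exact binomial test (two-sided, on expected counts rounded to whole numbers) with Benjamini-Hochberg adjustment over all genes tested at 0.05; it compares these 2 libraries, not conditions, and takes amplified reads as independent molecules, which they are not. By this test 45 of the 86 members differed, or 52.3%, beside 47.6% of all genes tested. Of these, 14 were higher in area 1 and 31 in area 2, beside 24.0% and 23.7% of all genes tested in each direction. At 100 TPM or more it was 44 of 79 members, or 55.7%, beside 62.6% of all genes at that level, so the share of members is not above the background. Of these 44, 13 were higher in area 1 and 31 in area 2; all genes at that level leaned the same way, with 18.4% higher in area 1 and 44.2% in area 2. In complex III 7 of 9 genes differed, 6 of them higher in area 2 with log2 ratios from 0.05 to 0.11, and Cyc1 higher in area 1. In complex I 17 of 37 differed, 13 of them higher in area 2, the direction in which genes at these levels leaned. After every count was divided by 10, to stand for amplified copies, no member differed, where 0.703% of all genes tested and 5.56% of those at 100 TPM or more did.

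**Figure D5:**
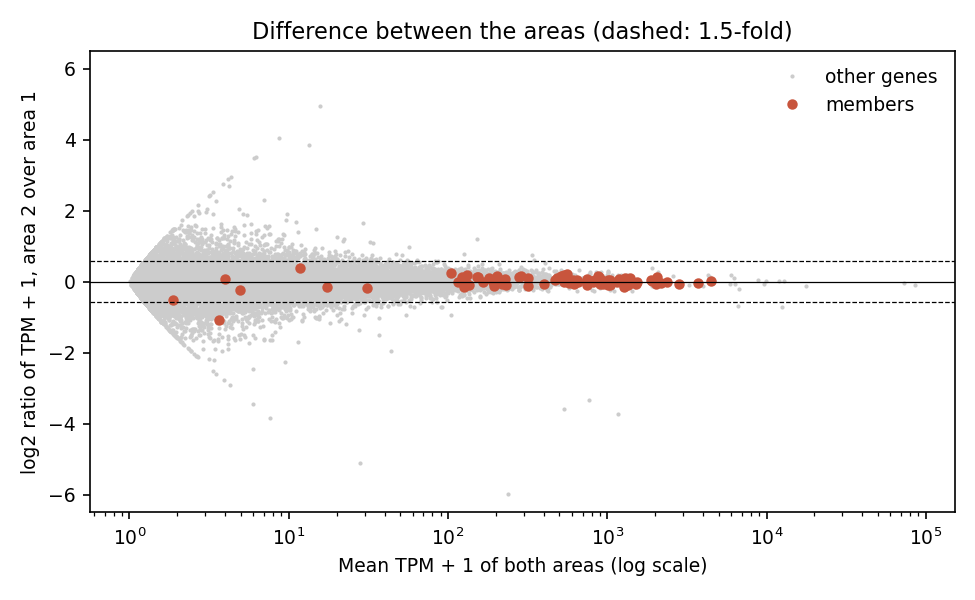
Log2 ratio of TPM + 1 of area 2 over area 1 (vertical axis) against the mean TPM + 1 of both areas on a log scale (horizontal axis), with the 86 members tested in red and the other genes tested in grey; dashed lines mark 1.5-fold. One member, Cox8b, lies outside the dashed lines, and the members above 100 TPM stay within 0.24 of 0.

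Many nuclear respiratory chain genes are known targets of the transcription factors NRF1 and GABP, an ETS factor. RefSeq promoter sequences (GRCm38.p6) were matched for 71 of the 88 genes, and the 250 bases before the first listed start were searched on both strands. The NRF1 core (GCGC, any base, then TGCGC, or its complement) was found in 13 of the 71 (18.3%), beside 5.30% of 17491 protein-coding genes with windows of the same length. Those genes were not matched to the members by level or base composition, and 66 of the 71 members were at 50 TPM or more. The 13 were 6 of 32 genes of complex I, 2 of 3 of complex II, none of 5 of complex III, 1 of 13 of complex IV and 4 of 17 of complex V. The ETS word CCGGAAG was in 11 of the 71 (15.5%) beside 9.13%, the TATAAA box in 7 (9.86%) beside 12.4%, and the YY1 word AAGATGGC in 0 of the 71 beside 1.51%; none of these words contains another. Windows of many members reach into annotated exons, and 4 of the 13 had a match with 20 bases on either side that is free of them. These 4 stretches are shown on the strand of the gene, with the NRF1 match in capitals.
Atp5h: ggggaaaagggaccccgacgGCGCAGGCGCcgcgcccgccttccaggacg
Cox6a1: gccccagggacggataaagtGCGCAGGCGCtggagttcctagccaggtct
Ndufs5: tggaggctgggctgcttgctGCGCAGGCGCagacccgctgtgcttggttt
Ndufb4: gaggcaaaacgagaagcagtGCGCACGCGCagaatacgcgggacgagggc
They lie at chr11:115420031-115420080, chr5:115349046-115349095, chr4:123718255-123718304 and chr16:37654530-37654579, all on the minus strand. The window of Cox6a1 holds 2 matches and that of Ndufb4 3, and the levels of these genes run from 193 ± 2.69 TPM for Ndufb4 to 2030.3 ± 68.6 for Atp5h. The level of Ndufb4 is that of its own row, which is uncertain because of its copy Ndufb4c. A match is a description of letters in a window and no measure of binding.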

How the data were processed

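The symbol rule that picks the members uses no measured values. The rule and the lists of markers, assembly factors and paralogs were chosen with earlier results of these data known. Per the file headers, the deposited gene and transcript tables give expected counts, in which a read that matches several genes is split, TPM, a score column with the posterior SD of the count, and for transcripts the percent of the gene; the authors' TPM is relative to effective length and to the library, per the file headers. The build is mm10, per the labels. The aligner, the counter, its versions and its strand setting were not given in the sources used here. Gene names, types and coordinates came from GENCODE M21 by Ensembl ID, and 42462 of 43346 IDs matched; the rest held 0.432% and 0.435% of counts. M21 is later than the annotation used for counting, so a gene or transcript type can differ. Spike-in and numeric rows were left out of gene totals, which were 19962271 and 19261911 of 20532709 and 19939370 counts.

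With 1 group there is no contrast: levels are described by mean and SD of 2 areas, and counting error and floors (3 counts) cover counting only. The exact binomial test used SciPy 1.17.1 on expected counts rounded to whole numbers. It was tried on simulated counts that held counting error only, which cannot show how it behaves on amplified reads. Scaling alternatives used edgeR 4.0.16 and DESeq2 1.42.0 in R 4.3.3. Copies were found with BLAST+ 2.17.0, coding sequences against transcripts of genes in the tables. Named genes were all paralogs, in each complex the 3 highest and the lowest detected member, core or catalytic subunits, members over 1.5-fold apart or not detected, and the 3 highest of each other list; copies, genes with non-coding transcripts, Ndufa11, Ndufb2, Cox5a, Cox5b, Cox7a2l, Sdhc, Atp5f1 and others named for a transcript, a ratio or a motif were chosen after values were seen. The values of 1 member enter counts, sums and medians and are not reported here by themselves.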

Additional observations from a re-analysis of the deposited data

How the results depend on the processing

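Over 19 results, 15 of the 52 values under other settings moved by less than the spread between areas or stayed within 1.5 times the count, and 37 moved by more. The order of the complex medians changed under 2 of them: complex IV fell below complexes V and I on coding transcripts, and complex V passed complex IV with copies added. With the posterior mean TPM the sum of all members was 70481 TPM and the medians of complexes I, III and IV were 582, 1194 and 967 TPM. Rescaled to the same total over nuclear protein-coding genes, the sum was 122403 TPM and the medians of complexes I to V were 1011, 265, 2074, 1680.2 and 1594 TPM. This setting multiplies all levels of a library by the same factor. Its moves are a change of scale and are counted among the 37. With counts per full transcript length the medians were 620.2, 179.6, 1205, 1039.9 and 989 TPM. With coding transcripts only, an alternative chosen after seeing the data, the sum was 64478 and the medians were 570.5, 146, 979.9, 415 and 839 TPM. With copies added to each member, also chosen after seeing the data, the sum was 79171 TPM and the medians of complexes I and V were 624 and 1146 TPM. With Ndufa4 and Ndufa4l2 in complex IV, chosen after seeing the data, complex I held 30.3% and complex IV 32.5% of the sum. With copies the share of Atp5g3 was 41.9% of TPM. The shorter rows of the copies weigh more per count, in this share and in the sum with copies. By summed expected counts the shares were 58.9% for Atp5g3, 99.859% for Cox4i1, 99.1% for Cox7a2, 99.6% for Cox7b and 99.95% for Ndufa4. Members over 1.5-fold apart numbered 2 with a pseudocount of 0.1 (26.7% of all genes tested), 0 with 5 (1.79%), 2 with TMM and 2 with size factors (27.1% by either), and with counts divided by 10 the exact binomial test called 0 members (0.703% of all genes). Leaving out 1 of 2 areas leaves the other's value, which is no test of stability.

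No paired analysis was possible because both libraries belong to 1 group. With 2 areas the SD is itself uncertain, reads are not independent molecules, and more depth does not separate bases that a gene shares with a copy.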
